A study of Mus musculus with 6 samples.

Results

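Matricellular glycoproteins and fibronectin were examined in cultured aortic smooth muscle cells of the mouse, with and without the LIM-only protein FHL2. The members were the tenascin genes Tnc and Tnxb, the thrombospondin genes Thbs1 and Thbs2, the periostin gene Postn, Sparc and its relative Sparcl1, and the fibronectin gene Fn1, 8 of the 19057 genes named on the array. They were chosen by name, with earlier results of these data known. Every probe whose platform gene symbol was a member was taken, which gave 26 of 45281 probes. The wild-type group and the FHL2-knockout group were both C57Bl/6, and each held 3 culture batches measured on 1 array apiece. A batch pooled cells from 3 aortas, so each genotype stood for 9 mice, and RNA was taken at confluence after 48 h in medium without serum. The age and sex of the mice and the part of Fhl2 that was deleted are not given in the sources used here.

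Matricellular proteins are secreted into the matrix but mostly change how cells adhere and signal rather than bearing load. Fibronectin is the adhesive glycoprotein that cells stretch into fibrils through integrins, and tenascins, thrombospondins, periostin and SPARC bind to it, to collagens or to the same receptors. In the vessel wall several of these genes are low in resting smooth muscle and rise after injury, and tenascin C and thrombospondin 1 in particular are known from remodelling arteries.

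Tnc was much higher in knockout cells and Sparc modestly higher, while Thbs1, Thbs2, Tnxb and Fn1 were lower. Postn and Sparcl1 were not measurable. Expression was read as normalized intensity on the log2 scale, and only probes with a detection p under 0.05 on 3 or more of the 6 arrays entered the test. Of the 26 member probes 16 were tested, and at an adjusted p under 0.05 (limma) 5 were higher and 6 lower in knockout cells, while 5 did not pass. Over all 15527 tested probes 29.6% were called, 14.4% higher and 15.2% lower. The groups did not overlap for 12 of the 16 member probes, against 44.4% of all tested probes. By the brightest tested probe of each gene, 2 members were higher and 4 lower, with a median change of -0.76 and a median size of 0.98, beside -0.01 and 0.30 over 9051 genes. A Tnc probe and a Tnxb probe were tested only through the genotype in which they were detected, so these counts rest in part on the filter. Because the members were chosen with earlier results known, the values beside all probes and genes are a description only. Without wild-type replicate 2, the dimmest array, 3 member probes were lower of 15 tested. Nothing in the labels says more of how independent the batches were, so p-values measure the spread between these arrays.

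**Figure D1:**
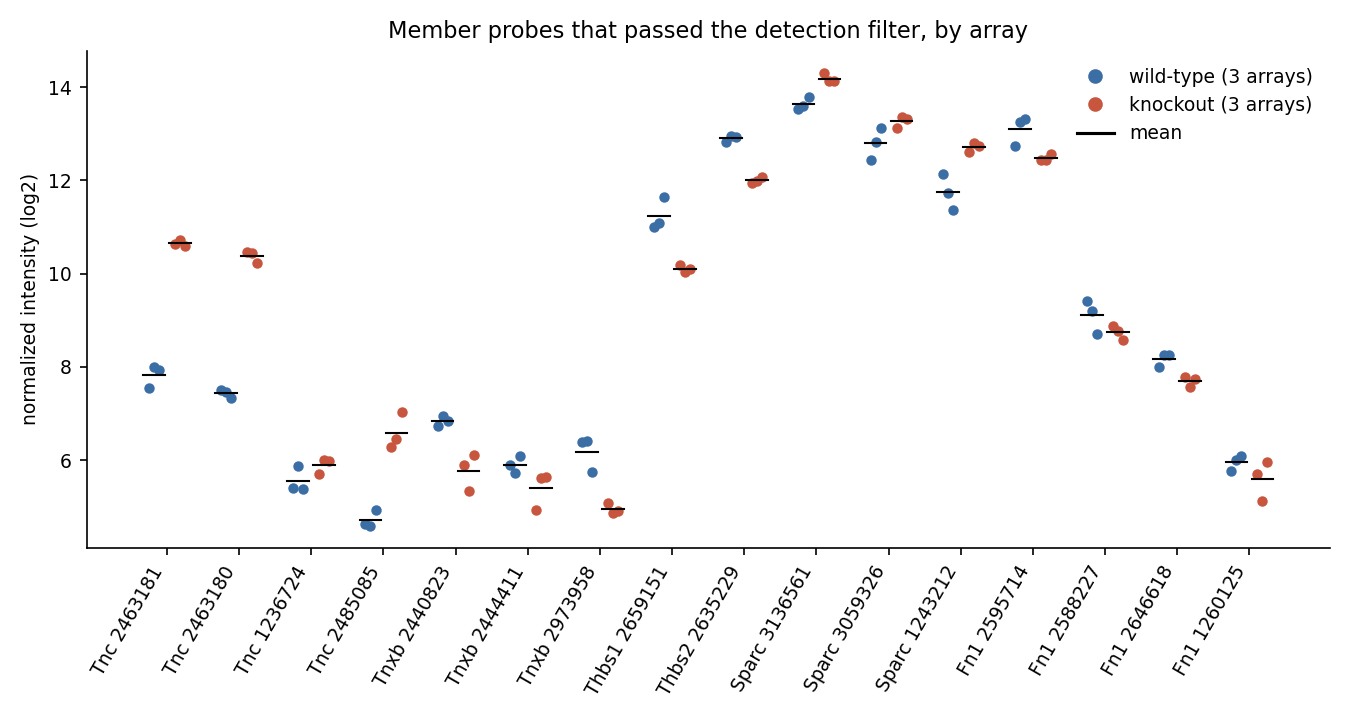
Normalized intensity (log2) of the 16 member probes that passed the detection filter, on each of the 3 wild-type (blue) and 3 knockout (red) arrays, with black lines at the group means; numbers after the gene are probe numbers. The 2 brightest Tnc probes lie far higher on the knockout arrays, Sparc probes slightly higher, and Thbs1 and Thbs2 lower without overlap; heights of different probes are not comparable.

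Median raw intensity ran from 116 to 172 over the arrays and the mean background from 112 to 162, with 14844 to 16115 probes detected. Fhl2 itself, on chromosome 1, fell by 4.57 ± 0.15 (SE) on the log2 scale by its brighter probe (adjusted p = 9.66e-07). Of 10 measured smooth muscle markers 4 were higher and 1 lower in knockout cells, with mean levels of 8.23 to 8.39 on wild-type and 8.93 to 9.06 on knockout arrays. Actg2 rose by 3.89 ± 0.19, Tpm2 by 1.22 ± 0.14 and Lmod1 by 1.09 ± 0.13 (SE) on the log2 scale, and Mylk fell by 0.56 ± 0.11 (SE). A further Mylk probe gave 0.17 without passing. Cald1, not called by its brightest probe, rose by 1.75 by probe ILMN_2508679, while its other tested probes did not pass. Acta2, also called higher, was bright in both genotypes (14.61 ± 0.20 and 15.12 ± 0.08, SD, n = 3) and Tagln was detected on all 6 arrays, whereas Cnn1 was detected on 0 arrays and the better Myh11 probe on 1 wild-type and 2 knockout arrays. Further tested Acta2 probes rose by 0.84, 0.92 and 1.11. Markers of other cell types also moved with the genotype, and the part of any of these markers in the results was not tested. Of 8 endothelial markers that passed the filter, 6 (Emcn, Egfl7, Esam, Icam2, Pecam1 and Cdh5) did so through the wild-type arrays alone, being detected on 0 knockout arrays, so that their lower values there follow in part from the filter. Of these 8, 6 were lower and 2 did not pass, and Tek, Tie1, Cldn5, Vwf and Robo4 were below the filter. The mean level of the 8 lay between 6.96 and 7.32 on wild-type and between 5.24 and 5.32 on knockout arrays. Of 5 mesothelial and epithelial markers that passed the filter, 3 (Upk1b, Msln and Krt7) likewise did so through the knockout arrays alone. Upk3b by its brightest probe and Cdh1 rose by 3.48 ± 0.21 and 1.14 ± 0.22 (SE). Both were dim in wild-type cells, where Cdh1 was detected on 2 arrays and the Upk3b probes ILMN_2941712 and ILMN_2941715 on 0. The mean levels of the 5 measured markers of this list were 4.90 to 5.13 and 7.94 to 8.10. Krt8, Krt18, Krt19, Epcam and Lrrn4, also of this list, were below the filter. Adventitial fibroblast markers split 4 higher to 7 lower of 12, with mean levels of 8.77 to 8.87 and 8.04 to 8.09. Among 3 measured macrophage markers 1 was higher and 1 lower (6.47 to 6.59 and 5.92 to 6.23), with Adgre1 and Ptprc below the detection filter, and among 5 cartilage and bone cell markers 3 were lower (8.80 to 8.93 and 8.13 to 8.31). Xist, the RNA that coats the silenced X in females, had 4 tested probes, all 4 present on every wild-type array and 0 present in knockout cells. Xist detection thus split by genotype, so any difference in sex between the groups would coincide with genotype in every comparison here. The part of sex in the results was not tested. For the cell type markers above, fewer cells of a type and less RNA per cell cannot be told apart in such cultures.

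Tenascin C, encoded on chromosome 4, a hexameric glycoprotein that loosens the hold of cells on fibronectin, showed the largest change among the members. Its brightest probe, ILMN_2463181, read 7.55, 7.99 and 7.93 on the wild-type arrays and 10.63, 10.71 and 10.60 on the knockout arrays. The knockout arrays lay far above the wild-type arrays and close to each other. The rise was 2.82 ± 0.15 (SE) on the log2 scale, or 7.08-fold (adjusted p = 6.66e-06). A further probe, ILMN_2463180, read 7.50, 7.46 and 7.32 against 10.47, 10.45 and 10.22, a rise of 2.95 ± 0.13 (SE) or 7.74-fold (adjusted p = 3.10e-06). The raw intensities of ILMN_2463181, before any correction, were 399.8, 231.3 and 447.6 in wild-type and 1731, 1819 and 1432 in knockout cells, so the separation was already present in the deposited values. Both probes passed in all 18 alternative settings, with changes of 2.29 to 2.92 and 2.29 to 3.03.

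The other Tnc probes were dim. ILMN_2485085 read 4.63, 4.60 and 4.93 in wild-type cells, where it was detected on 0 of 3 arrays, and 6.29, 6.46 and 7.02 in knockout cells, where it was detected on all 3. It was thus tested only through the knockout arrays, and its p-value rests in part on the filter. The fitted change was 1.87 ± 0.20 (SE, adjusted p = 3.24e-04), and 0.63 without background correction. Against the lowest detected signal it was at least 2.54-fold higher, a bound that holds for the main background correction only. ILMN_1236724 was detected on all 6 arrays but lay near background, at 5.40, 5.86 and 5.38 against 5.70, 6.00 and 5.98. Its groups overlapped, and it did not pass (0.35 ± 0.17 SE, adjusted p = 0.162). The remaining 3 probes were detected on at most 1 array, with detection p between 0.0310 and 0.882, and were not tested.

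These disagreements between Tnc probes were tested directly, as the change in the log2 difference between each further probe and the brightest probe of its gene. Over 3098 genes with at least 2 tested probes there were 4326 such pairs, of which 2.68% were called. Among the 10 member pairs, in 4 genes, 1 was called. The difference of ILMN_1236724 from the brightest Tnc probe was -2.16, -2.13 and -2.55 on the wild-type arrays and -4.92, -4.71 and -4.61 on the knockout arrays. The gap was wider on every knockout array, with a change of -2.47 ± 0.19 (SE, adjusted p = 2.79e-04). On the raw scale the mean signal above background of ILMN_1236724 was 30.3 in wild-type and 40.9 in knockout cells, a ratio of 1.35, whereas that of the brightest probe went from 220.2 to 1515, a ratio of 6.88. The gap of ILMN_2463180 changed by 0.13 ± 0.20 (SE, adjusted p = 0.865). That of ILMN_2485085 is not read, since the probe was at the floor in wild-type cells. All 4 tested Tnc probes carry the same transcript record in the platform annotation, and their binding positions within the gene were not analysed here.

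**Figure D2:**
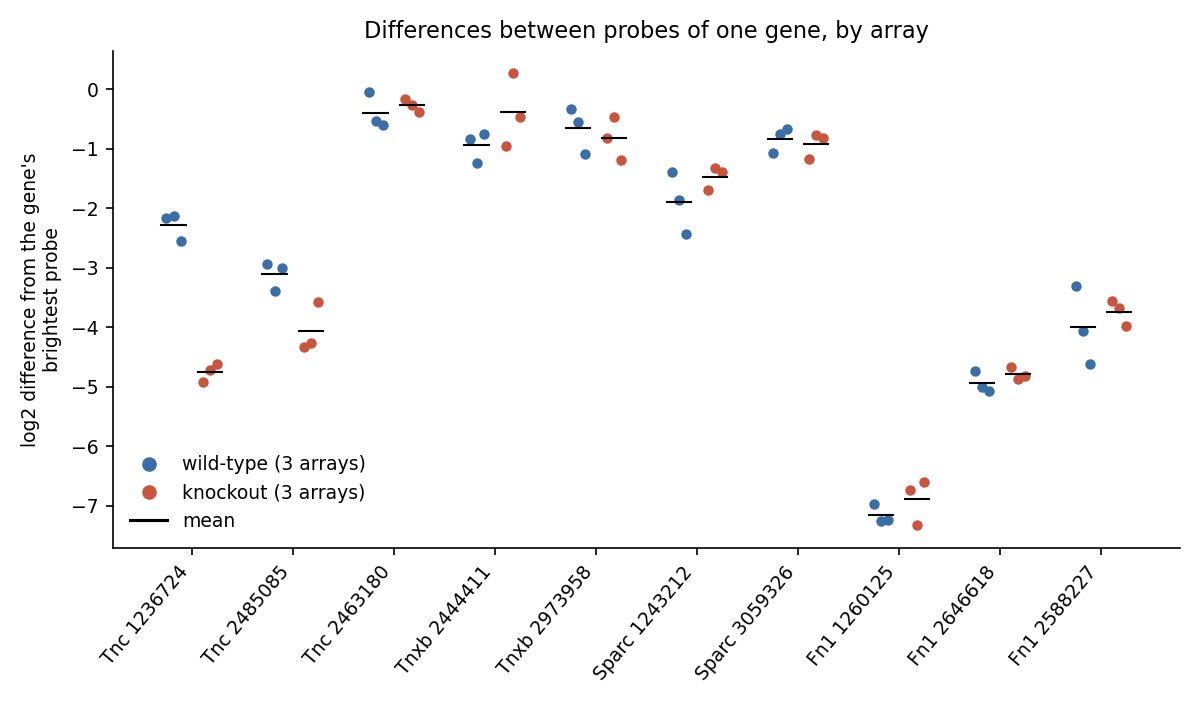
Log2 difference of each further tested probe from the brightest tested probe of its gene, on the 3 wild-type (blue) and 3 knockout (red) arrays, with black lines at the means. Only for Tnc ILMN_1236724 did the change between genotypes pass (mean difference -2.28 in wild-type and -4.75 in knockout); no other pair passed, and those of Tnc ILMN_2485085 and Tnxb ILMN_2973958 are not read because the probe was undetected in one genotype.

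The upstream sequences of Tnc, the member that changed most, of Thbs2, which fell, and of Sparc, which rose, are shown because these genes moved in different directions. They are the 250 bases before the annotated start from RefSeq (GRCm38.p6, read 5′ to 3′ on the gene's minus strand), and 5 of the 8 members, with 7 windows, were in that table. The Tnc window is that of the further upstream of its 2 annotated starts. This window, chr4:64047016-64047265, overlaps the annotated gene 8030451A03Rik, while the Thbs2 window, chr17:14694263-14694512, and the Sparc window, chr11:55420081-55420330, overlap 0 annotated genes. Capitals mark matches on either strand to TATANA (TATA box), TGANTCA (AP-1), GGAATG (TEAD) or the CArG box of SRF.
Tnc: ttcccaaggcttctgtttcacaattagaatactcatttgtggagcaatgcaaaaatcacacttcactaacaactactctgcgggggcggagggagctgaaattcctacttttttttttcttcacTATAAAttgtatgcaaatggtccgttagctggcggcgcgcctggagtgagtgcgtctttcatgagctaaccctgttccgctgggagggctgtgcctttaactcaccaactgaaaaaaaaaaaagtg
Thbs2: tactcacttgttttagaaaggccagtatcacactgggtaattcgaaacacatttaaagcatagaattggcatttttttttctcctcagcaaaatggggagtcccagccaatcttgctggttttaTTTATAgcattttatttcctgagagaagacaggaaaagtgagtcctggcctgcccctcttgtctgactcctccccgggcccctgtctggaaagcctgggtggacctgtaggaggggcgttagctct
Sparc: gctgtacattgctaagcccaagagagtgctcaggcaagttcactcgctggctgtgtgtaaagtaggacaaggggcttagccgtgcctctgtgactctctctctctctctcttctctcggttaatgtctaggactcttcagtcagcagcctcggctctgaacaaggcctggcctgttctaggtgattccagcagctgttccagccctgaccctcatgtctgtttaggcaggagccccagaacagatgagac
The printed Tnc window and the Thbs2 window each held 1 TATANA match, both 126 bases before the start, and the Sparc window held 0 matches to any of the 4 motifs. The window of the other Tnc start, not printed, held 2 TATANA matches, at 29 and 205 bases. In the Tnxb window the only match was TGANTCA, 55 bases before the start. Over all 32851 windows 22.6% held TATANA, 6.75% TGANTCA, 12.6% GGAATG and 1.47% a CArG box. A match is a description of the letters and says nothing of binding.

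Tenascin X, on chromosome 17, organizes collagen fibrils and is needed in mouse and human for the strength of skin. Unlike Tnc, its tested probes were all lower in knockout cells. ILMN_2440823 read 6.72, 6.95 and 6.83 in wild-type and 5.89, 5.34 and 6.10 in knockout cells. The groups did not overlap, and the fall was 1.06 ± 0.20 (SE) on the log2 scale or 2.08-fold (adjusted p = 0.00494). ILMN_2973958 read 6.39, 6.41 and 5.74 in wild-type cells and 5.08, 4.87 and 4.91 in knockout cells. It was detected on 3 wild-type and 0 knockout arrays. It was thus tested only through the wild-type arrays, and its p-value rests in part on the filter. The fitted change was -1.23 ± 0.19 (SE, adjusted p = 0.00220), and -0.38 without background correction. The bound, at least 1.89-fold lower, therefore holds for the main background correction only. ILMN_2444411, at 5.89, 5.71 and 6.08 against 4.93, 5.61 and 5.64, lay lower on each knockout array but did not pass (-0.50 ± 0.21 SE, adjusted p = 0.110). The pair test did not call ILMN_2444411 (adjusted p = 0.484), and ILMN_2973958 could not be tested in this way because it was at the floor in knockout cells. The remaining 3 probes were detected on 0 arrays. All of these readings were close to background, and without background correction the fall of ILMN_2440823 was 0.40 in place of 1.06.

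The thrombospondins Thbs1 and Thbs2 are trimeric proteins that bind CD47 and inhibit angiogenesis, and thrombospondin 1 also activates latent TGF-beta. Each had a single probe, so agreement between probes could not be examined. Thbs1, on chromosome 2, read 10.99, 11.08 and 11.65 in wild-type and 10.18, 10.03 and 10.09 in knockout cells. Wild-type replicate 3 was the highest, and the groups did not overlap. The fall was 1.14 ± 0.18 (SE) on the log2 scale or 2.20-fold (adjusted p = 0.00236), and it passed in all 18 alternatives with values from -1.27 to -0.94. Thbs2, on chromosome 17, read 12.83, 12.95 and 12.92 in wild-type and 11.95, 12.00 and 12.08 in knockout cells. Both groups were tight and well apart, with SDs of 0.06 in each, and the fall was 0.89 ± 0.11 (SE) or 1.86-fold (adjusted p = 7.47e-04). It did not pass with arrays scaled to a common median (-0.84, adjusted p = 0.0804).

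SPARC is a calcium-binding glycoprotein that binds collagen and weakens focal adhesions. All 3 Sparc probes, on chromosome 11, were bright and changed in the same direction. The brightest, ILMN_3136561, read 13.52, 13.59 and 13.80 in wild-type and 14.30, 14.12 and 14.13 in knockout cells. The groups were separate by a small margin, and the rise was 0.55 ± 0.13 (SE) or 1.46-fold (adjusted p = 0.0147). It did not pass without wild-type replicate 2 (0.52, adjusted p = 0.0543) or with median scaling (0.59, adjusted p = 0.310). ILMN_1243212 read 12.14, 11.73 and 11.36 against 12.60, 12.80 and 12.74, a rise of 0.97 ± 0.20 (SE) or 1.96-fold (adjusted p = 0.00716) that passed in all 18 alternatives. ILMN_3059326 read 12.45, 12.83 and 13.13 against 13.13, 13.36 and 13.32. Its groups touched at wild-type replicate 3 and knockout replicate 1, and it did not pass (0.47 ± 0.18 SE, adjusted p = 0.0930), although it did in 5 of the 18 alternatives, among them without wild-type replicate 3 (0.64, adjusted p = 0.0301) and without background correction (0.46, adjusted p = 0.00792). The pair test called neither further probe (adjusted p = 0.568 and 0.918). The single probe of Sparcl1, an anti-adhesive relative of SPARC also called hevin, was detected on 0 arrays (detection p 0.125 to 0.885).

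Periostin, which binds integrins and promotes collagen cross-linking, was likewise not measurable. Of its 3 probes, 2 were detected on 0 arrays. ILMN_2766028 was detected on 1 array, knockout replicate 3, with values of 4.82, 4.72 and 4.83 in wild-type and 4.60, 5.17 and 5.99 in knockout cells. These overlap, and the probe was not tested.

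**Figure D3:**
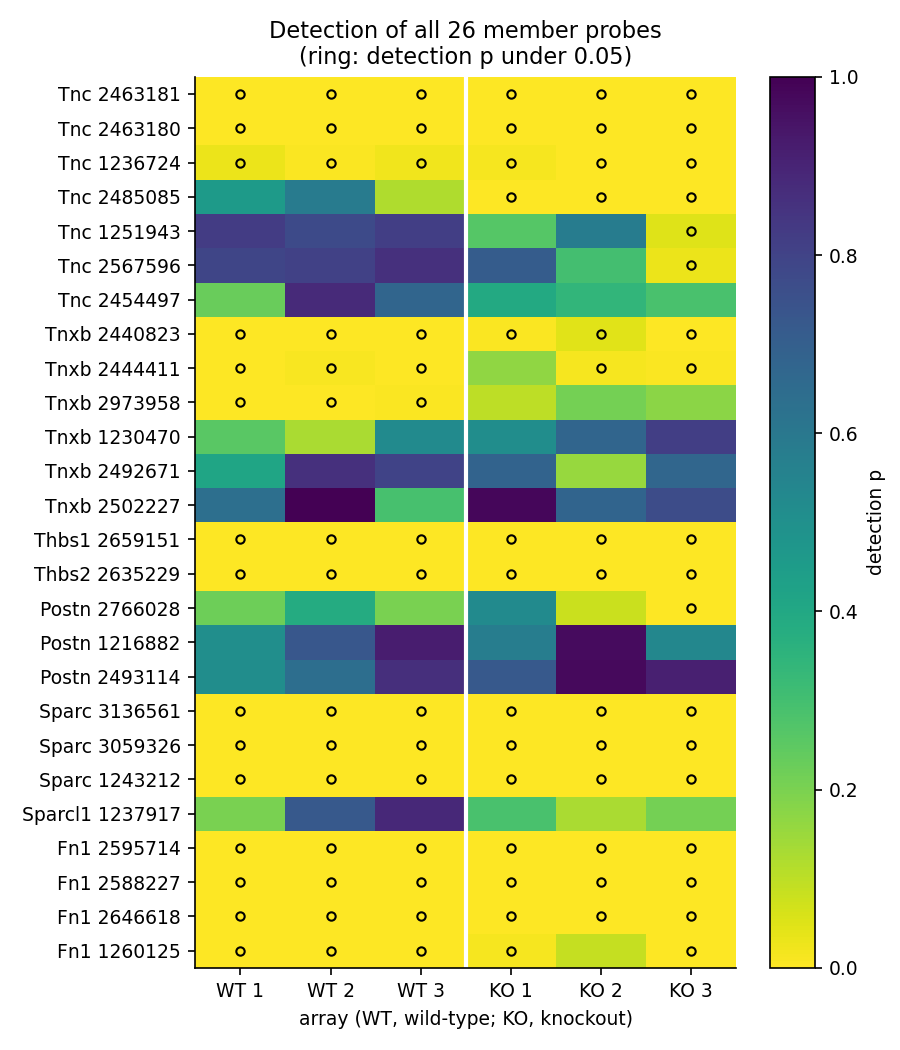
Detection p (colour, 0 to 1) of all 26 member probes on the 6 arrays, with a ring where it was under 0.05. Thbs1, Thbs2 and Sparc probes were detected on every array, Sparcl1 on none, and single rings at knockout replicate 3 mark 2 Tnc probes and 1 Postn probe.

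Fibronectin, encoded by Fn1 on chromosome 1, is an adhesive scaffold of the matrix. All 4 tested Fn1 probes were lower in knockout cells, by 0.36 to 0.62 on the log2 scale, and 2 of them passed. The brightest, ILMN_2595714, read 12.73, 13.26 and 13.32 in wild-type and 12.44, 12.44 and 12.56 in knockout cells. Wild-type replicate 1 lay near the knockout arrays without overlapping them, and the change was -0.62 ± 0.17 (SE), a 1.54-fold fall (adjusted p = 0.0270). ILMN_2646618 read 7.99, 8.26 and 8.25 against 7.78, 7.58 and 7.74, a change of -0.47 ± 0.13 (SE, adjusted p = 0.0297). These calls were narrow. Each was lost when any array other than wild-type replicate 1 was left out, with adjusted p from 0.0534 to 0.0934 for ILMN_2595714 and from 0.0504 to 0.105 for ILMN_2646618. With median scaling they gave 0.327 and 0.355, and with no detection filter 0.0574 and 0.0561. ILMN_2588227, at 9.42, 9.20 and 8.70 against 8.88, 8.77 and 8.58, gave -0.36 ± 0.20 (SE, adjusted p = 0.211), and the dim ILMN_1260125, at 5.77, 6.00 and 6.08 against 5.71, 5.11 and 5.96, gave -0.36 ± 0.22 (SE, adjusted p = 0.253). In both probes the groups overlapped. No Fn1 pair was called (adjusted p = 0.702, 0.785 and 0.797), which does not show that the probes changed alike.

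**Figure D4:**
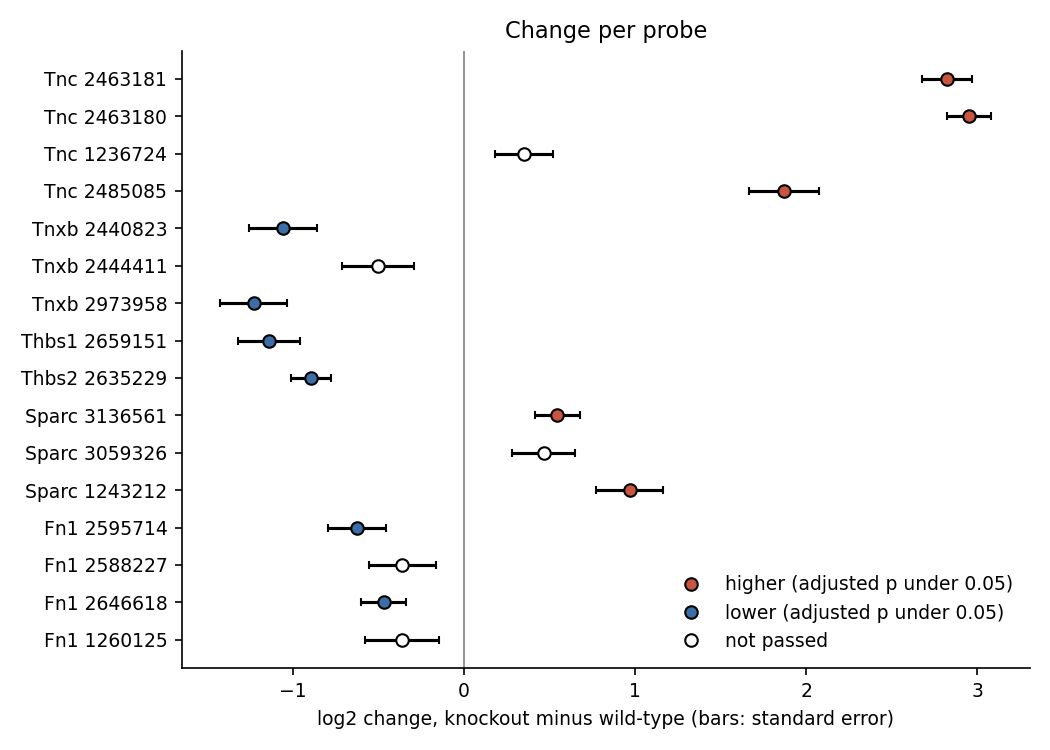
Log2 change, knockout minus wild-type, of the 16 tested member probes with its standard error; red is higher and blue lower at an adjusted p under 0.05, white did not pass. Tnc and Sparc probes lie right of 0 and Tnxb, Thbs1, Thbs2 and Fn1 probes left of it, and the Tnc probes spread from 0.35 to 2.95.

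The surrounding genes of the pathway were described by 10 lists of 130 genes, of which 92 were measured, 24 higher and 16 lower by their brightest tested probe, beside 14.8% higher and 16.5% lower over all 9051 genes. The lists, too, were chosen with earlier results of these data known. Among other tenascins and thrombospondins both measured genes were lower. Comp, the cartilage thrombospondin, fell by 4.81 ± 0.16 (SE) and Thbs3 by 0.61 ± 0.17 (SE). Tnn, Tnr and Thbs4 were below the filter. Of the SPARC-related genes, Fstl1 and Smoc1 gave 0.32 ± 0.13 and 0.20 ± 0.13 (SE) and did not pass. Among 5 measured CCN genes, secreted matricellular regulators, only Ccn3 passed (1.50 ± 0.26 SE), and it was detected on 1 wild-type array. Ccn2, named here after its values were seen, read 15.44, 15.44 and 15.29 in wild-type cells and 15.44 on every knockout array. It took the same quantile on most arrays, so its change of 0.05 ± 0.11 (SE) is not read as an unchanged level. Of 13 other adhesive glycoproteins 1 was higher and 4 lower, with a median of -0.30. The matrilin gene Matn4 fell by 2.23, Abi3bp by 1.90 and the basement membrane gene Nid2 rose by 0.76. Nid1, named here after its values were seen, fell by 0.69 ± 0.13 (SE) by its brightest probe. Emilin2, detected on 0 knockout arrays, was at least 1.72-fold lower. Further probes of Matn4 and Abi3bp gave -0.10 (adjusted p = 0.855) and -0.54 (adjusted p = 0.0615).

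Receptors went both ways. Of 7 measured fibronectin-binding integrin subunits, 1 was higher and 2 lower (median -0.12). Itga3 rose by 1.71 ± 0.16 (SE), and Itga9, whose product binds tenascin C, fell by 0.94 ± 0.14 (SE). Itgav fell by 0.38 ± 0.12 (SE), while further probes of Itgav gave 0.25 and -0.21 and a further Itga9 probe gave -0.39 without passing. The subunits of the main fibronectin receptor, named here after their values were seen, did not pass, Itga5 at -0.09 ± 0.34 and Itgb1 at -0.22 ± 0.21 (SE). Of 10 other receptors 3 were higher and 0 lower (median 0.29), namely the heparan sulfate proteoglycan Sdc1 by 2.69 ± 0.22 (SE), the collagen receptor Ddr1 by 1.22 ± 0.14 (SE) and calreticulin (Calr) by 0.80 ± 0.13 (SE). A further Sdc1 probe rose less, by 1.29 ± 0.25 (SE), and also passed.

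Of 15 measured genes of fibronectin assembly and integrin adaptors 6 were higher and 1 lower (median 0.47). Among the 6, 1 was detected on 0 wild-type arrays and passed the filter through the knockout arrays alone. Fblim1 rose by 1.33 ± 0.14, filamin A (Flna) by 1.05 ± 0.13 and zyxin (Zyx) by 0.71 ± 0.11 (SE). The tensin gene Tns3 fell by 1.14 ± 0.11 (SE) with 3 of 3 probes lower. The tensin gene Tns1, named here after its values were seen, rose by 1.07 ± 0.18 (SE) by its brightest probe. Of 12 enzymes that cross-link or cleave these proteins 5 were higher and 3 lower (median 0.10). Transglutaminase 2 (Tgm2), which cross-links fibronectin, rose by 2.88 ± 0.13 (SE). The membrane protease Mmp14 rose by 0.87 and tissue plasminogen activator (Plat) by 0.93, while Mmp11 fell by 1.41 on the log2 scale. Plau, named here after its values were seen, fell by 1.26 ± 0.24 (SE) by its brightest probe.

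Of 18 measured regulators 4 were higher and 3 lower (median 0.16). Tgfb2 and Tgfb3, ligands that induce tenascin C and fibronectin in many cells, rose by 1.24 ± 0.16 and 1.15 ± 0.13 (SE). The receptor gene Tgfbr1, named here after its values were seen, fell by 0.52 ± 0.14 (SE) by its brightest probe, and Tgfb1 was below the filter. Any link of these genes to the members was not tested. Klf4 rose by 0.94 ± 0.15 (SE), and the immediate early gene Egr1 fell by 0.79 ± 0.15 (SE). Of 8 splicing factors that act on fibronectin or related exons 3 were higher and 1 lower (median 0.24). Srsf3 rose by 0.82 ± 0.17 (SE) and Hnrnpa1 by 0.82 ± 0.14 (SE). Further Hnrnpa1 probes gave 0.24 and 0.19 without passing. Srsf6 gave 0.53 by its brightest probe and -0.54 by another, both passing. Celf1 fell by 0.58 and gave 0.32 and -0.40 by others that did not pass.

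**Figure D5:**
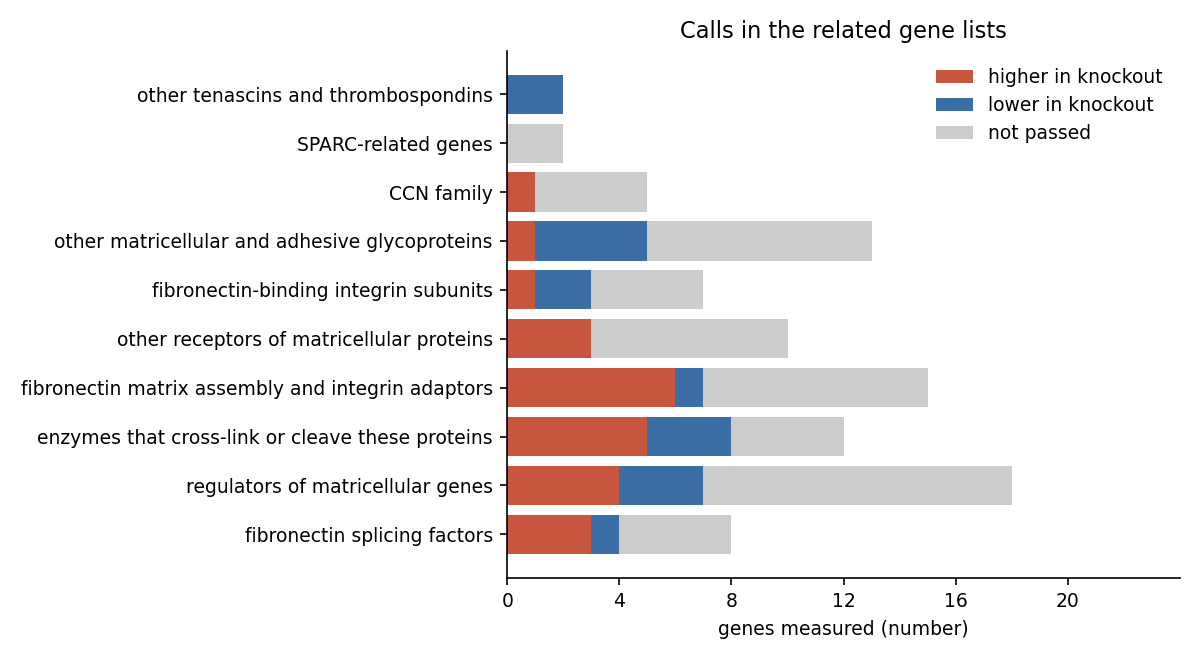
Number of measured genes in each of the 10 related lists that were higher (red), lower (blue) or did not pass (grey) in knockout cells. The adaptor list held the most calls upward (6 of 15) and the other adhesive glycoproteins the most downward (4 of 13). In each of these lists 1 of the calls passed the detection filter through a single genotype.

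The genes whose pattern over the 6 arrays was most alike to each member's, whatever their level, were found by the root-mean-square difference of mean-centred log2 values between brightest probes. For Tnc these were Msmo1, Foxa1 and Cdhr1, at 0.13, 0.14 and 0.14. For Tnxb they were Rtl6, Stambpl1 and Il3ra, at 0.09, 0.10 and 0.11, and for Thbs1 Tpbg, C4bp and Clk1, at 0.10, 0.11 and 0.12. Thbs2 had closer neighbours in Asah2, Mamstr and Aldh4a1, at 0.02, 0.04 and 0.05, and so had Sparc in Kank1, Ikbkg and Dynll1, at 0.02, 0.05 and 0.05. For Fn1 they were Rnase4, Ddit3 and C1galt1, at 0.05, 0.06 and 0.06. These are likenesses of values over 6 arrays, which mostly restate a similar difference between the genotypes.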

How the data were processed

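Labelled cRNA of 6 samples was hybridised to 1-colour Illumina beadchips. The authors deposited a raw intensity for every probe on every array, from which background had not been removed, together with a detection p-value, per the file headers. Their deposited matrix on the log2 scale, normalized between arrays by steps not given in the sources used here, correlated at 0.999 with each array and had medians of 4.94 to 4.95. Software listed in the submitters' processing notes comprises limma 3.10.2, GenomeStudio 2011.1 and R 2.14.0, with no roles stated.

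Intensities were processed in R 4.3.3 with limma 3.58.1 by neqc (background from the detection p-values, offset 16, quantile normalization, log2), which assumes like distributions in both genotypes and shrinks changes of dim probes. Symbols came from the platform annotation, updated by gene identifier through RefSeq (GRCm38.p6): 34885 probes had 1 symbol, 18 several and 10378 none. Differences were tested with lmFit and eBayes and adjusted by Benjamini-Hochberg over 15527 probes, and probe pairs likewise over 4326. Errors of changes are moderated standard errors, those of means are SDs, n = 3. Bounds set the mean of the detected group against, on each array of the other group, the lowest detected value or the probe's value if that was greater.

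The members and lists were chosen with earlier results of these data known. Named genes were all member probes, Fhl2, up to 4 called genes with the smallest p per list (the 2 brightest where none was called) and the 3 genes most alike to each member. Marker genes that define a cell type are named in addition. On simulated data for the 15527 probes, 6% of 50 changes of 0.5, 54% of 50 of 1, 96% of 50 of 2 and 100% of 50 of 4 on the log2 scale were recovered, with 5 false among 133 calls over all sizes. Far fewer probes were changed there than the 4596 called in the data, which makes the adjusted threshold stricter in the simulation. The shares recovered for single probes therefore do not give the share recovered in the data. For the 4326 pairs, 50% of changes of 1 and 88% of changes of 2 were recovered, with 4 false among 73. The number of arrays limits the precision, and background correction sets the size of changes of dim probes and of the bounds. Slides and scan dates are not given in the sources used here.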

Additional observations from a re-analysis of the deposited data

How the results depend on the processing

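The 16 tested member probes kept their direction in every alternative in which they were tested. Both bright Tnc probes, Thbs1, the Sparc probe ILMN_1243212 and Tnxb ILMN_2440823 passed in each of these. So did the gap of Tnc ILMN_1236724 (-2.63 to -2.18, adjusted p at most 0.00324). Tnxb ILMN_2973958 was detected on wild-type arrays alone, and the filter left it in 14 of the 18 alternatives. That it passed in those 14 is therefore not read as support. The calls of Fn1, Thbs2 and the brightest Sparc probe that were lost are given beside their values. Scaling arrays to a common median left 685 probes higher and 1082 lower (2235 and 2361 before), 3 member probes lower (6 before), 76 pairs called (116 before) and 11 list genes higher and 8 lower (24 and 16 before). The cause was not tested. The number of pairs called was 329 with normexp and an offset of 50, 520 with no background correction, 310 with an offset of 50 and, where other numbers of pairs were tested, 59 with detection on all 6 arrays and 991 with no filter. Member pairs called rose from 1 to 2, 3 and 2 under the first 3 of these and to 7 of 18 with no filter. These added member pairs include Tnc ILMN_2485085, which was undetected in wild-type cells, so its gap follows the background setting and is not read. Leaving out each array in turn gave 1468 to 2190 probes higher and 1505 to 2048 lower, 4 to 6 member probes higher and 3 to 5 lower, 34 to 88 pairs called, 1 to 1 member pairs called, and 20 to 24 list genes higher and 10 to 14 lower. The fewest higher probes came without knockout replicate 2 and the fewest lower probes and pairs without wild-type replicate 2.

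The replicate numbers are not said to pair the samples, and the deviations of same-numbered arrays correlated at 0.12, 0.07 and 0.06, with every array highest with its own number, as a hint from the data only. With the replicate block Fn1 ILMN_2646618 gave an adjusted p of 0.0548, and no other member call changed. Dim probes, among them all of Tnxb, limit what can be said of size.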

Other observations

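The 3 untested member probes that were detected on a single array, 2 of Tnc and 1 of Postn, were each detected on knockout replicate 3 (detection p 0.0470, 0.0310 and 0.00107). Their values there were 5.23, 5.27 and 5.99 on the log2 scale, against 4.47 to 4.83 for these probes on the wild-type arrays. Knockout replicate 3 had 15960 detected probes, beside 15167 and 15017 on the other knockout arrays. Both Tnc detection p-values were close to the threshold of 0.05. The share of all untested probes detected on this array alone was not computed, so the count is not read as a trait of the members.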
